A study of Homo sapiens with 8 samples.

Results

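The γH2AX regions described here lie on both sides of the centromeres of human chromosomes 18, 19 and 20 in A2780, a human ovarian carcinoma cell line. They were chosen by position alone, as the regions of the 3 deposited peak lists whose midpoint fell between 13 and 21 Mb on chromosome 18, 20 and 33 Mb on chromosome 19, or 24 and 32 Mb on chromosome 20 (build hg19). The 3 flanks together hold 1855 of the 53169 regions that the lists have on chromosomes 1 to 22 and X (3.49%). Of these, 683 are on the Pt-ttpy list, 743 on the cisplatin list and 429 on the untreated list.

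The 8 samples form 4 groups of 2, all from A2780. They are γH2AX chromatin immunoprecipitates of cells given Pt-ttpy and of cells given cisplatin, each at its IC80, the dose for 80% inhibition, for 96 hours, γH2AX immunoprecipitates of untreated cells, and input chromatin of untreated cells. The labels tie both samples of each immunoprecipitated group to the same list, so each condition is represented by 1 list without replicates, and no test between conditions was made. The input samples belong to no list and were not analysed here.

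γH2AX is the histone variant H2AX phosphorylated on its tail around DNA double-strand breaks and stalled replication forks. Cisplatin forms crosslinks between neighbouring bases of DNA. Pt-ttpy is a platinum complex of a tolyl-terpyridine ligand that binds G-quadruplexes, structures that guanine-rich DNA can fold into. Human centromeres are built on long arrays of alpha satellite, a short sequence repeated in tandem, and the DNA beside them holds further satellites and segmental duplications. The hg19 assembly leaves most of each array as a gap, so reads from it can be placed only on the repeat copies that the assembly retains at its edges.

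That the regions lie beside these centromeres follows from the rule that chose them. On each chromosome the regions of all lists stopped at a stretch with no region in it, 3.10 Mb long on each, which holds the centromere gap. These stretches ran from chr18:15410590 to 18510920, from chr19:24631717 to 27731780 and from chr20:26319514 to 29419852. The 3 lists stopped at nearly the same base, since their innermost ends on the long arm lay within 4 bp of each other on chromosome 18, 1 bp on chromosome 19 and 327 bp on chromosome 20. On the short arm these distances were 811, 10 and 12 bp. Distances below are counted from the edge of these stretches. At the 6 outer ends of the windows, the nearest region of any list inside lay 128 to 1417 kb from the limit, and the nearest outside lay 45.9 to 3844 kb from it. Fold below is the authors' ratio of signal to background for a region, and it is read only within a list.

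**Figure D1:**
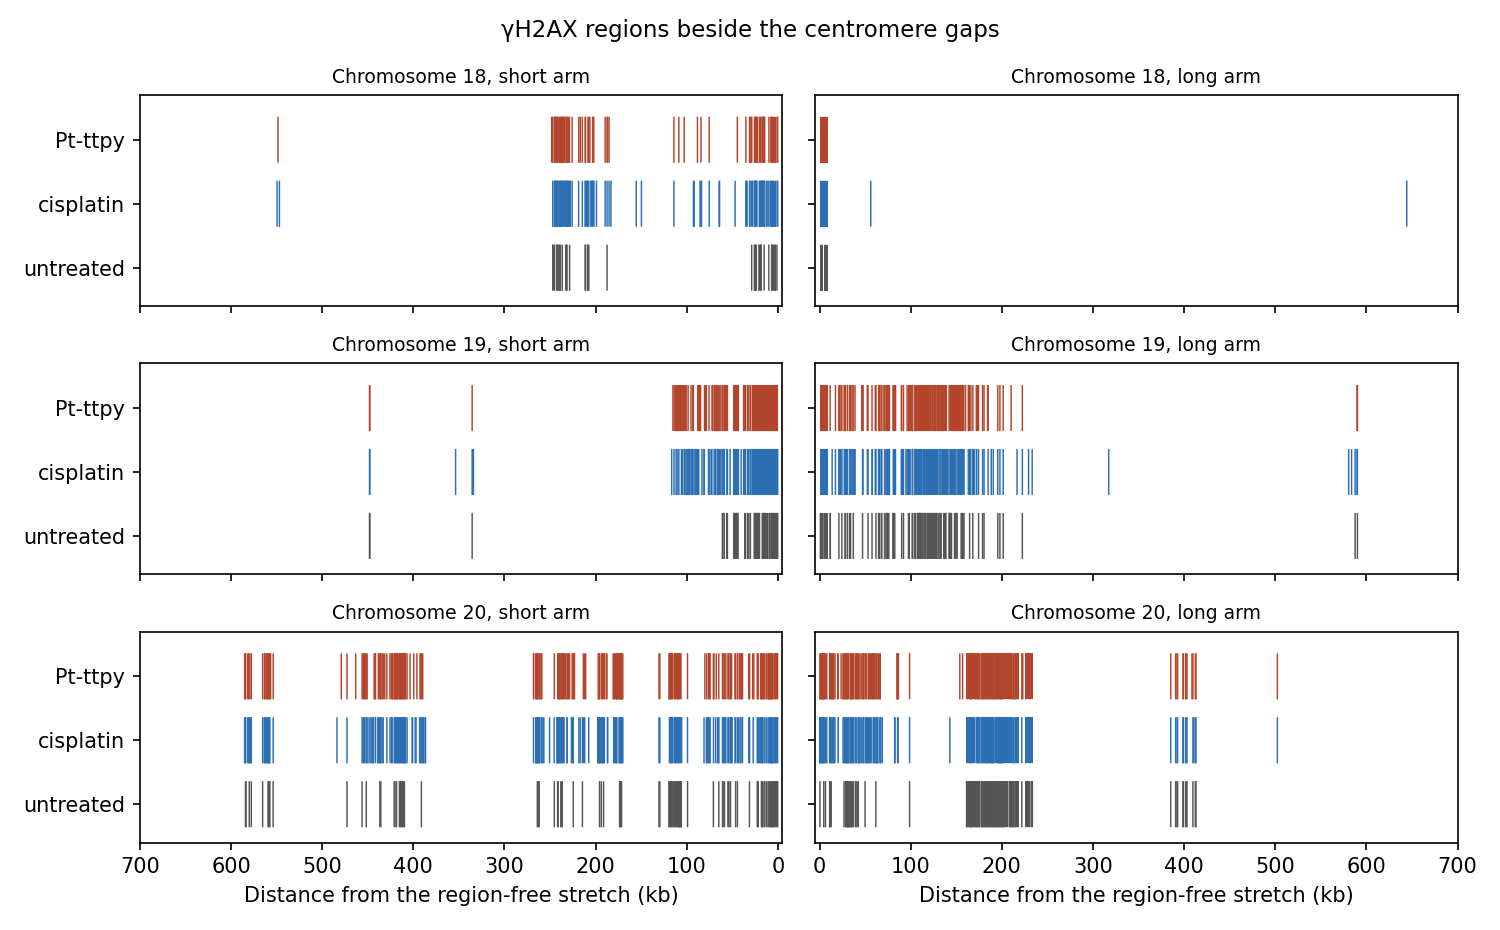
Positions of the γH2AX regions of the Pt-ttpy (red, top), cisplatin (blue, middle) and untreated (grey, bottom) lists on the short and the long arm of chromosomes 18, 19 and 20, by distance in kb from the region-free stretch around the centromere gap. Each line is drawn at the midpoint of a region and each filled bar spans its length; 26 Pt-ttpy, 38 cisplatin and 10 untreated regions farther than 700 kb are not drawn. Regions of the 3 lists gather in the same clusters next to the gap.

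Regions crowded against the gap on all 3 chromosomes. Within 500 kb of it lay 635 of 683 Pt-ttpy, 673 of 743 cisplatin and 407 of 429 untreated regions, and within 100 kb lay 294, 333 and 172. The median distance was 117.9 kb in the Pt-ttpy, 117.9 kb in the cisplatin and 119.3 kb in the untreated list. Few regions lay farther out, since 19 Pt-ttpy, 31 cisplatin and 9 untreated regions were more than 1 Mb from the gap. Leaving out the bins of 1 Mb wholly inside the region-free stretch, 1 of 6 on chromosome 18, 2 of 11 on chromosome 19 and 2 of 6 on chromosome 20 held no region in any list. For comparison, windows around the centromeres of chromosomes 6, 11 and 12 were chosen from general knowledge of hg19 after the values of the 3 flanks had been seen. There, 279 of 776 Pt-ttpy, 288 of 876 cisplatin and 194 of 495 untreated regions lay within 500 kb of the gap, and the median distances were 917, 1206 and 871 kb. These 3 chromosomes differed among themselves. On chromosome 12, 184 of 209 Pt-ttpy, 179 of 219 cisplatin and 116 of 127 untreated regions lay within 500 kb, while on chromosome 6 these were 31 of 302, 34 of 357 and 29 of 183 and on chromosome 11 they were 64 of 265, 75 of 300 and 49 of 185. Crowding near the gap was thus not limited to chromosomes 18, 19 and 20, where 77.0%, 97.9% and 94.2% of the Pt-ttpy regions lay within 500 kb.

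Chromosome 20 held the most regions in every list. Its flank had 346 Pt-ttpy, 363 cisplatin and 220 untreated regions in 8 Mb, which is 43.2, 45.4 and 27.5 regions per Mb. The chromosome 19 flank had 237, 258 and 160 regions in 13 Mb, or 18.2, 19.8 and 12.3 per Mb. The chromosome 18 flank had 100, 122 and 49 regions in 8 Mb, or 12.5, 15.2 and 6.12 per Mb. The order of the chromosomes was thus the same in the Pt-ttpy, cisplatin and untreated lists, and chromosome 20 contributed 50.7%, 48.9% and 51.3% of the flank regions of each. Because few regions lay toward the outer limits of the windows, these densities depend on where the limits were put.

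**Figure D2:**
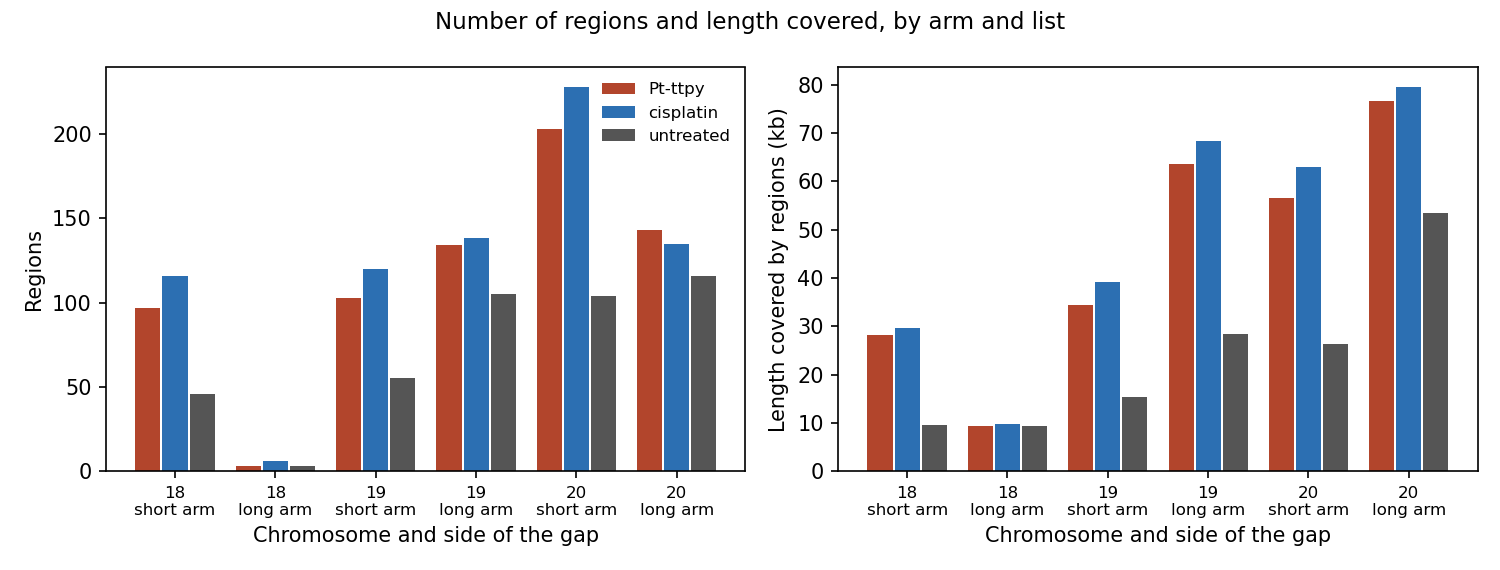
Number of γH2AX regions (left) and length they cover in kb (right) on each side of the centromere gap of chromosomes 18, 19 and 20, for the Pt-ttpy, cisplatin and untreated lists. The long arm of chromosome 20 is the arm where the Pt-ttpy list had more regions than the cisplatin list (143 against 135), while the covered length there was 76.7 against 79.6 kb.

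Both drug lists had more flank regions than the untreated list, by a smaller factor than in the rest of the genome as deposited. The ratio of flank regions was 1.59 (95% counting interval 1.41 to 1.80) for Pt-ttpy over untreated and 1.73 (1.54 to 1.96) for cisplatin over untreated, where all other regions gave 1.84 and 2.69. Each list was then shortened to its strongest 9709 regions, the length of the untreated list. These flank ratios were then 1.09 (0.957 to 1.25) and 1.06 (0.930 to 1.22). Both intervals include 1, but they treat regions as independent, which regions of a cluster are not. They are therefore no test between conditions. Peak numbers are missing from the untreated list. If each missing number stood for 1 region, the ratios would be 1.18 for Pt-ttpy and 1.28 for cisplatin in the flanks. Over the whole lists they would be 0.962 and 1.38, so that for Pt-ttpy the flank ratio would be the larger on this count. Numbers missing across a window limit were not counted in the flanks, so these flank ratios are upper limits. The difference in number of flank regions therefore depends on how many regions each list holds in all and on the missing numbers. The Pt-ttpy and cisplatin lists stood closer to each other in the flanks, at a ratio of 0.919 (0.827 to 1.02), than elsewhere, at 0.686, and with equal list lengths the flank ratio was 1.03. The windows of chromosomes 6, 11 and 12 gave ratios of 1.57, 1.77 and 0.886, which are near those of the 3 flanks.

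Chromosome 18 had the largest count ratios of the 3 flanks. They were 2.04 for Pt-ttpy over untreated and 2.49 for cisplatin over untreated, against 1.48 and 1.61 on chromosome 19 and 1.57 and 1.65 on chromosome 20. With equal list lengths they were 1.37 and 1.51 on chromosome 18, 0.975 and 1.01 on chromosome 19, and 1.12 and 1.00 on chromosome 20. With missing untreated numbers counted they were 1.30 and 1.58 on chromosome 18, 1.09 and 1.19 on chromosome 19, and 1.21 and 1.27 on chromosome 20. Chromosome 18 kept the largest ratios under both, at smaller values. The covered length placed the chromosomes in another order: Pt-ttpy regions covered 2.00 times the untreated length on chromosome 18, 2.24 times on chromosome 19 and 1.67 times on chromosome 20. Cisplatin regions covered 39.4 against 18.8 kb in untreated cells on chromosome 18, and 2.45 and 1.79 times the untreated length on chromosomes 19 and 20. The value for chromosome 18 joins unlike arms. On its short arm alone the covered length was 2.99 times the untreated length for Pt-ttpy and 3.14 times for cisplatin, the largest of any arm. On its long arm these ratios were 1.00 and 1.04. In the untreated list 55.2% of the covered length on chromosome 18 lay in regions wider than 1 kb. In all, the flank regions covered 268.9 kb in the Pt-ttpy, 289.5 kb in the cisplatin and 142.4 kb in the untreated list.

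The 2 arms of a chromosome were not alike. On chromosome 18 the short arm held nearly all regions, with 97 Pt-ttpy, 116 cisplatin and 46 untreated against 3, 6 and 3 on the long arm. Yet those few long-arm regions covered 9.38 kb in the Pt-ttpy, 9.75 kb in the cisplatin and 9.35 kb in the untreated list, which is nearly the same length in each. On chromosome 19 the long arm was the fuller side, with 134, 138 and 105 regions, against 103, 120 and 55 on the short arm. On chromosome 20 the short arm had 203, 228 and 104 regions and the long arm 143, 135 and 116. Leaving aside the few regions on the long arm of chromosome 18, the long arms of chromosomes 19 and 20 were the arms where the 3 lists differed least in number, in proportion. In covered length this held for chromosome 20 only: the ratios to untreated were 1.43 for Pt-ttpy and 1.49 for cisplatin on its long arm, but 2.24 and 2.40 on the long arm of chromosome 19, against 2.15 and 2.39 on the short arm of chromosome 20.

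The densest windows of 1 Mb were those that touch the region-free stretch, except for the second on chromosome 18. The window from 29 to 30 Mb on chromosome 20 held 142 Pt-ttpy, 134 cisplatin and 116 untreated regions, and the window from 26 to 27 Mb held 133, 144 and 78. On chromosome 19 they were the windows from 27 to 28 Mb, with 132, 128 and 103 regions, and from 24 to 25 Mb, with 100, 112 and 53. For chromosome 18, that from 15 to 16 Mb held 75, 92 and 39 regions, and the next, from 14 to 15 Mb, 18, 20 and 6. The windows on the long-arm side of chromosomes 19 and 20 were those where the untreated list came closest to the drug lists in proportion.

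Inside these windows the regions fell into separate clusters, which were singled out after their values were seen. On the long arm of chromosome 20 the first 100 kb held 72 Pt-ttpy, 72 cisplatin and 29 untreated regions. The next 100 kb held 40, 35 and 52, and the third 16, 13 and 23, so that there the untreated list had the most regions. Its regions were shorter, however: in the second 100 kb they covered 29.3 kb in the Pt-ttpy, 30.6 kb in the cisplatin and 23.1 kb in the untreated list. On the long arm of chromosome 19 the second 100 kb held 76, 64 and 64 regions, which covered 41.5, 42.3 and 14.5 kb. A number of regions and the length they cover can therefore place the lists in different orders within the same cluster.

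A stretch on the short arm of chromosome 19 held regions of both drug lists and no untreated region; it too was singled out after its values were seen. From chr19:24515181 to 24569360, over 54.2 kb, lay 43 Pt-ttpy and 45 cisplatin regions, which covered 8.45 and 10.2 kb. There, 19 of 43 Pt-ttpy and 19 of 45 cisplatin regions lay on a region of the other drug. Over all flanks 81.3% of Pt-ttpy and 72.5% of cisplatin regions did, and over the whole lists 69.9% and 47.8%. The drug lists thus met less often in the stretch than over the flanks or the whole lists. The first untreated region toward the gap began at chr19:24570827. The drug regions of the stretch ranked low in their lists, with a median fold percentile of 23.3 in the Pt-ttpy and 32.5 in the cisplatin list. The percentile is the share of the list with a lower fold. Up to 14 of the missing untreated numbers could fall in that stretch, so the lack of an untreated region there cannot be told apart from a line left out.

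Flank regions were short, with higher median widths in the drug lists than in the untreated list. The median width was 209 bp (95% interval 194 to 223) on the Pt-ttpy, 197 bp (184 to 217) on the cisplatin and 168 bp (156 to 190) on the untreated list. The intervals of the cisplatin and the untreated list overlap. Outside the flanks the medians were 184, 168 and 164 bp. Intervals cover counting error only, and regions of a cluster are not independent of each other. By chromosome, the medians were 199.5, 176 and 138 bp on chromosome 18, 223, 213 and 165 bp on chromosome 19, and 199, 197 and 192.5 bp on chromosome 20. Chromosome 20 was thus the flank where the 3 medians lay closest. The lower limit of the lists differs: the narrowest flank region had 101 bp on the Pt-ttpy, 101 bp on the cisplatin and 16 bp on the untreated list, where 58 regions had 100 bp or fewer.

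Some regions were much wider. Of the Pt-ttpy flank regions 46 were wider than 1 kb (6.73%, against 5.92% of that whole list). Of the cisplatin regions 50 were (6.73%, against 4.39%), and of the untreated regions 21 (4.90%, against 4.65%). They held 35.4%, 38.4% and 30.6% of the covered length of the flanks, against 36.7%, 30.9% and 32.1% in the rest of the genome. Most regions had a close neighbour, since the median distance from a region to the next on the same arm was 516 bp for the Pt-ttpy, 511 bp for the cisplatin and 564 bp for the untreated list.

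The widest regions lay next to the gap on chromosomes 18 and 19 and at a distance from it on chromosome 20. On chromosome 18 the widest region was the same stretch in all 3 lists: chr18:18515444-18520349 (4906 bp) in the Pt-ttpy, chr18:18515441-18520351 (4911 bp) in the cisplatin and chr18:18515458-18520349 (4892 bp) in the untreated list. Its starts differed by at most 17 bp between lists and its ends by 2 bp. It also had the highest -log10 p of its list in each case, a value that 21 Pt-ttpy, 19 cisplatin and 11 untreated regions of the genome share. The fold was 26.3, 35.1 and 60.4, values that rest on a different background in each list and are not compared. A second wide region, chr18:18510925-18515281 in the Pt-ttpy, chr18:18510922-18515280 in the cisplatin and chr18:18510921-18515152 in the untreated list, filled the space between it and the gap.

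On chromosome 19 the drug lists each had 1 long region at the edge of the gap where the untreated list had 4 pieces. It ran over chr19:27731782-27740566 (8785 bp) in the Pt-ttpy list and chr19:27731782-27740570 (8789 bp) in the cisplatin list, and was the widest and the strongest of the flank in both. The untreated pieces were chr19:27731781-27733546, which was the strongest untreated region of the flank with a fold of 60.1, chr19:27733769-27734997, chr19:27735246-27735897 and chr19:27736103-27740558, the widest with 4456 bp. The starts of the whole stretch lay within 1 bp of each other in the 3 lists and the ends within 12 bp. In both drug lists the region shared the highest -log10 p of the list.

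On chromosome 20 the widest region was chr20:29647946-29653881 (5936 bp, fold 12.1) in the Pt-ttpy, chr20:29647945-29653886 (5942 bp, fold 13.2) in the cisplatin and chr20:29647918-29651187 (3270 bp, fold 13.2) in the untreated list, which had 3 pieces on the stretch. The strongest regions were on the other arm. They were chr20:26189749-26190498 (750 bp, fold 24.2) in the Pt-ttpy, chr20:26188792-26189498 (707 bp, fold 29.9) in the cisplatin and chr20:26189746-26190494 (749 bp, fold 54.7) in the untreated list. The cisplatin region had the same fold as its neighbour chr20:26189748-26190505, and the other lists also held both regions. The strongest signal within each list therefore lay on the same stretches of chromosome 20 in all 3.

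Joining the regions of all lists that lay within 1 kb of each other gave 252 blocks. Of these, 109 held regions of all 3 lists, 56 of both drugs, 59 of cisplatin alone, 24 of Pt-ttpy alone, 2 of cisplatin and untreated cells, and 2 of Pt-ttpy and untreated cells. The 109 shared blocks took up 444.8 of 543.5 kb and held 538 Pt-ttpy, 558 cisplatin and 424 untreated regions. They were 16 of 57 blocks on chromosome 18, 41 of 89 on chromosome 19 and 52 of 106 on chromosome 20.

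The widest block of each flank was shared by all lists. On chromosome 20 it spanned chr20:29580758-29638817 (58060 bp), where 50 Pt-ttpy regions covered 45936 bp, 44 cisplatin regions 47356 bp and 70 untreated regions 38313 bp. On chromosome 19 it spanned chr19:27836136-27871133 (34998 bp), where 37 Pt-ttpy regions covered 26242 bp, 29 cisplatin regions 26087 bp and 40 untreated regions 9416 bp. On chromosome 18 it spanned chr18:15165404-15183021 (17618 bp), with 22 Pt-ttpy regions over 7855 bp, 25 cisplatin regions over 6902 bp and 12 untreated regions over 3082 bp. In the first 2 blocks the untreated list had more regions than either drug list and covered less of the block.

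Nearly every untreated flank region was also on the drug lists. Sharing at least 1 bp, 411 of 429 untreated regions (95.8%, exact 95% interval 93.4 to 97.5) lay on a Pt-ttpy region and 419 (97.7%, 95.8 to 98.9) on a cisplatin region, and the whole untreated list gave 95.1% and 96.1%. In the other direction, 335 of 683 Pt-ttpy regions (49.0%, 45.2 to 52.9) lay on an untreated region, against 39.5% of the whole list. Of 743 cisplatin regions 329 did (44.3%, 40.7 to 47.9), against 27.3% of the whole list. Drug regions of the flanks thus lay on deposited untreated regions more often than the drug lists as a whole. The untreated list lacks at least 27.2% of its numbers in the flanks and 49.0% over its whole length. The flank share leaves out numbers missing across a window limit, while the share of the whole list holds every missing number. The part of this in the contrast was not tested.

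The drug lists also shared more with each other in the flanks. There, 555 of 683 Pt-ttpy regions met a cisplatin region (81.3%, 78.1 to 84.1), against 69.9% of the whole list, and 539 of 743 cisplatin regions met a Pt-ttpy region (72.5%, 69.2 to 75.7), against 47.8%. The windows of chromosomes 6, 11 and 12 gave 81.1% and 72.7% for these shares. For Pt-ttpy and for cisplatin on untreated regions they gave 52.2% and 46.7%. Counted in regions, the overlap of the lists in the 3 flanks was therefore close to that around the 3 other centromeres. Counted in bases it was larger in the 3 flanks. Of the covered bases, 51.4% for Pt-ttpy and 48.0% for cisplatin lay on untreated regions, against 36.0% and 32.7% around the other centromeres. For Pt-ttpy on cisplatin and the reverse these shares were 83.7% and 77.8%, against 76.8% and 70.7%.

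**Figure D3:**
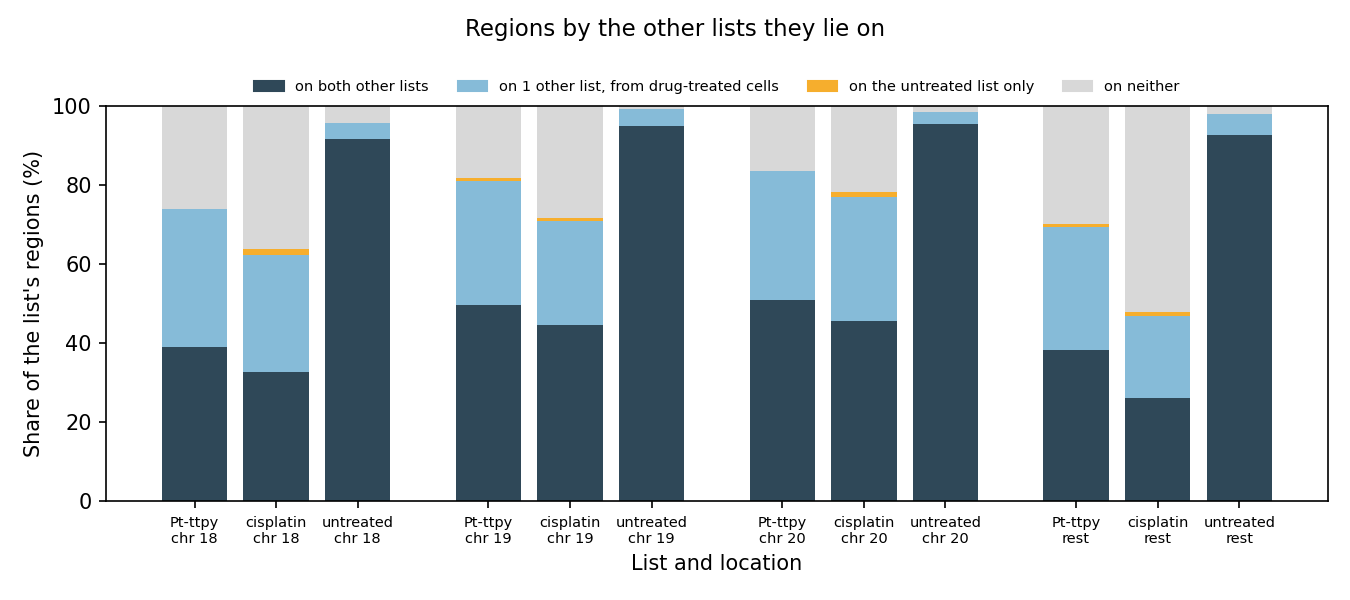
Share in percent of each list's regions that lie on both other lists, on 1 other list from drug-treated cells, on the untreated list only, or on neither, for the flanks of chromosomes 18, 19 and 20 and for the rest of chromosomes 1 to 22 and X. The share on neither other list was 16.5% for Pt-ttpy and 21.8% for cisplatin on chromosome 20, against 29.8% and 52.2% in the rest.

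Of the 3 flanks, chromosome 18 had the lowest of these shares when they were counted in regions. Counted in bases, it was lowest only for Pt-ttpy on cisplatin, at 79.1%. Chromosome 19 was then lowest for Pt-ttpy on untreated (43.3%, against 48.6% on chromosome 18) and for cisplatin on untreated (39.6% against 46.3%). It was also lowest for cisplatin on Pt-ttpy (75.0% against 75.5%). The shares that follow are counted in regions. Pt-ttpy regions lay on untreated regions in 39.0% on chromosome 18, 50.6% on chromosome 19 and 50.9% on chromosome 20, and cisplatin regions in 34.4%, 45.3% and 46.8%. Pt-ttpy regions lay on cisplatin regions in 74.0%, 81.0% and 83.5%, and cisplatin regions on Pt-ttpy regions in 62.3%, 70.9% and 77.1%. Chromosomes 19 and 20 had no fixed order. With equal list lengths Pt-ttpy regions lay on untreated regions in 73.7% on chromosome 19 and 68.3% on chromosome 20, and on cisplatin regions in 89.1% and 77.6%. At a -log10 q of at least 5 the first of these shares was 64.0% and 55.1%, the second 90.9% and 81.6%, and that of cisplatin on untreated regions 55.7% and 51.3%. Over the 3 flanks, 126 Pt-ttpy regions (18.4%) and 196 cisplatin regions (26.4%) were on neither other list. By chromosome these shares were 26.0% and 36.1% on chromosome 18, 18.1% and 28.3% on chromosome 19, and 16.5% and 21.8% on chromosome 20.

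Where a region of a list met exactly 1 region of another and the reverse, the ends lay close together. In 269 such pairs of Pt-ttpy and untreated regions the median difference was 21 bp at the start and 21 bp at the end, and the Pt-ttpy region was the wider in 242, with a median width ratio of 1.29. In 268 pairs of cisplatin and untreated regions it was 23.5 and 26 bp, with the cisplatin region wider in 245 and a ratio of 1.37. In 439 pairs of Pt-ttpy and cisplatin regions it was 19 and 16 bp, with the Pt-ttpy region wider in 190 and a ratio of 0.991. Paired regions of the rest of the genome gave ratios of 1.34, 1.41 and 0.980. Regions shared with untreated cells were thus wider in both drug lists in most flank pairs, and by a like median ratio elsewhere.

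The summits, the positions of highest signal within a region, were close as well. They differed by a median of 24 bp between Pt-ttpy and untreated cells, 24 bp between cisplatin and untreated cells and 19 bp between Pt-ttpy and cisplatin. Some untreated summits, 77 in all, lie outside their own region in the deposited list, which left 238 pairs with Pt-ttpy and 240 with cisplatin for this comparison. These differences are below the 200 to 700 bp to which the chromatin was sonicated.

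The flank regions that the drug lists share with untreated cells were the higher ones of each drug list. The 335 Pt-ttpy regions on an untreated region had a median fold percentile of 84.0, and the 348 off the untreated list 44.5. For cisplatin the 329 regions on an untreated region had 88.5, and the 414 off it 55.8. Over the whole lists the top 10% by fold, ties included, held 10.1% of Pt-ttpy and 9.95% of cisplatin regions. None of the flank regions off the untreated list was in it, against 110 of 335 Pt-ttpy and 147 of 329 cisplatin regions on an untreated region. The rest of the genome was much the same, with 3 of 10420 Pt-ttpy and 24 of 18241 cisplatin regions off the untreated list in the top 10%. In the flanks the highest fold off the untreated list was 6.49 for Pt-ttpy, at percentile 84.8, and 6.75 for cisplatin, at percentile 89.2. Width differed in the same way, with medians of 345 against 155.5 bp for Pt-ttpy and 339 against 149 bp for cisplatin.

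**Figure D4:**
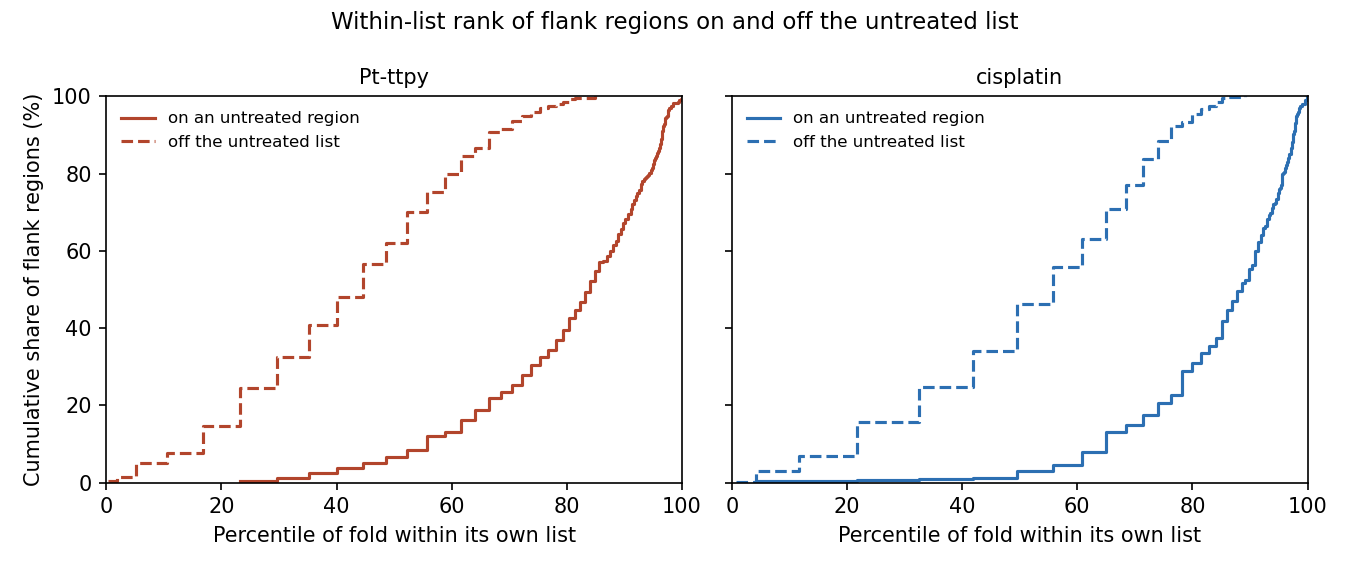
Cumulative share in percent of Pt-ttpy (left) and cisplatin (right) flank regions, by the percentile of their fold within their own list, for regions on an untreated region (solid) and off the untreated list (dashed). The dashed curves reach 100% at percentile 84.8 for Pt-ttpy and 89.2 for cisplatin, while the medians of the solid curves are 84.0 and 88.5.

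Regions off the untreated list were mostly near an untreated region. The median distance to the nearest was 1438.5 bp for Pt-ttpy and 1645 bp for cisplatin. Within 10 kb of an untreated region lay 295 of 348 regions for Pt-ttpy and 334 of 414 for cisplatin. Only 3 Pt-ttpy and 17 cisplatin regions lay more than 100 kb from any untreated region. Flank regions off the untreated list thus lay mostly between and beside untreated regions, in clusters where regions of every list lie close together. These distances were not taken over the whole lists, so they cannot be called particular to the flanks. Since numbers are missing from the untreated list, a region off it may also lie on a line left out.

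The strongest regions off the untreated list were on both drug lists. On chromosome 18 these were chr18:15175043-15175355 (313 bp, fold 6.49) for Pt-ttpy and the overlapping chr18:15175024-15175156 (133 bp, fold 5.89) for cisplatin. On chromosome 19 they were chr19:27894869-27894987 (119 bp, fold 5.98) and chr19:27894873-27894989 (117 bp, fold 6.06), which nearly coincide. On chromosome 20 they were 2 different places, chr20:25902135-25902433 (299 bp, fold 5.85) for Pt-ttpy and chr20:25910969-25911123 (155 bp, fold 6.75) for cisplatin, and each lay on a region of the other drug. In all 3 flanks the strongest region off the untreated list thus had a counterpart on the list of the other drug.

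Flank regions passed a stricter limit more often than their lists as a whole. A -log10 q of at least 5 was reached by 503 of 683 Pt-ttpy regions (73.6%), where 57.6% of the whole list reached it, by 541 of 743 cisplatin regions (72.8%), where 46.9% did, and by 345 of 429 untreated regions (80.4%), where 73.9% did. Among the top 10% of each list by fold were 16.1% of flank regions for Pt-ttpy, 19.8% for cisplatin and 12.8% for untreated cells. Over the whole lists these shares were 10.1%, 9.95% and 9.97%. On chromosome 18 they were 8%, 9.84% and 10.2%, which is near or below the whole lists. Chromosome 19 had 18.1%, 24.8% and 14.4%, and chromosome 20 had 17.1%, 19.6% and 12.3%. The windows of chromosomes 6, 11 and 12 had like values: 73.7% of Pt-ttpy, 71.5% of cisplatin and 71.5% of untreated regions reached the limit, and 16.0%, 20.7% and 16.0% were in the top 10%.

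The untreated counts have a limit of their own. Peak numbers run without a break in both drug lists and have gaps in the untreated list. Between untreated regions of the same flank 28 numbers are missing on chromosome 18, 57 on chromosome 19 and 65 on chromosome 20, and with them the untreated flanks would hold 579 regions.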

How the data were processed

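γH2AX ChIP-seq of A2780 cells was used as 3 deposited lists of narrow peaks. Alignment and calling tools and the build, per the submitters' processing notes, include BWA 0.7.5, MACS2 2.1.0 and hg19. Not given in the sources used here were the calling settings, the control of each list, the depth, and how replicates and reads that map to several places were handled. The names of both drug lists carry the tag untr beside that of the drug, and the untreated list carries it alone. Whether untreated samples were used in calling the drug lists is not stated, so the 3 lists may not be parallel calls. For each region the authors deposited a fold ratio over background, a -log10 p-value, a -log10 q-value, a score (the -log10 q multiplied by 10 and truncated) and a summit offset. These values are the authors' and were used only within a list.

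Each deposited line on chromosomes 1 to 22 and X was 1 region. Flanks were assigned by midpoint, overlap meant at least 1 shared bp, and exact 95% intervals are Clopper-Pearson for shares and, through them, for count ratios, and from order statistics for medians. A fold percentile is the share of a region's list with a lower fold, with ties counted at their middle rank. Regions named were, per flank and list, the widest and that of highest -log10 p (ties by fold, then start), the strongest of each drug off the untreated list, the 2 densest windows of 1 Mb and the widest block. Windows, members and rules were chosen with earlier results of these data known. Alternatives were a -log10 q limit of 5, merging within 1 kb, equal list lengths, shortened windows, 50% overlap, and the missing or repeated untreated numbers. The code was tested on simulated regions. Tools were scipy 1.17.1, pandas 2.3.3 and numpy 2.4.6 under Python 3.11.15, with matplotlib 3.10.9 for figures.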

Additional observations from a re-analysis of the deposited data

How the results depend on the processing

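Over the 3 flanks together, both drug lists held more regions than the untreated list under each alternative run; on chromosome 19 alone, equal list lengths left 156 Pt-ttpy against 160 untreated regions. Regions within 1 kb merged gave 43 Pt-ttpy, 49 cisplatin and 25 untreated regions on chromosome 18, 75, 89 and 62 on chromosome 19, and 112, 104 and 66 on chromosome 20, where Pt-ttpy then exceeded cisplatin; median widths became 486, 603 and 309 bp. Equal list lengths gave 74, 161 and 221 cisplatin regions on chromosomes 18, 19 and 20, and median widths of 252 bp for Pt-ttpy and 261 bp for cisplatin. The count ratios were then 1.09 for Pt-ttpy over untreated, 1.06 for cisplatin over untreated and 1.03 for Pt-ttpy over cisplatin. Overlap was then 67.8% for Pt-ttpy on untreated, 66.4% for cisplatin on untreated, 92.1% for untreated on Pt-ttpy, 91.6% for untreated on cisplatin and 79.8% for cisplatin on Pt-ttpy. A -log10 q of at least 5 gave median widths of 247 bp for Pt-ttpy, 244 bp for cisplatin and 199 bp for untreated cells. Overlap was then 55.9% for Pt-ttpy on untreated, 50.1% for cisplatin on untreated, 97.7% for untreated on Pt-ttpy and 76.2% for cisplatin on Pt-ttpy. Asking for 50% of a region to be covered gave 36.5% for Pt-ttpy on untreated, 32.8% for cisplatin on untreated, 75.7% for Pt-ttpy on cisplatin and 67.7% for cisplatin on Pt-ttpy. Counting missing numbers gave 77 untreated regions on chromosome 18 and ratios of 1.18 for Pt-ttpy and 1.28 for cisplatin. The cause was not tested. Windows shortened by 1 Mb moved none of 21 values, nor did 1 region per untreated number, chosen after seeing the data, move any of 10. No paired analysis was possible because each list stands for both replicates of its group, and for the same reason no replicate could be left out. The depth is unknown, so a region missing from a list may lie below its limit.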

Other observations

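Few untreated regions of the flanks were missing from the drug lists. Of the 429 untreated regions, 407 (94.9%) lay on both drug lists, 4 (0.932%) on Pt-ttpy only, 12 (2.80%) on cisplatin only and 6 (1.40%) on neither. In the rest of the genome these shares were near, at 92.9%, 2.19%, 3.15% and 1.80%. In the other direction, 2 Pt-ttpy (0.293%) and 8 cisplatin regions (1.08%) lay on an untreated region but not on the other drug's list. In the rest of the genome 0.772% and 0.786% did.

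More than 1 Mb from the gap lay 19 Pt-ttpy, 31 cisplatin and 9 untreated regions. Some of these isolated places recurred in all lists. On chromosome 19 the region chr19:22417736-22417848 of the Pt-ttpy list lay on chr19:22417736-22417850 of the cisplatin and chr19:22417735-22417848 of the untreated list. Its fold percentile was 88.0, 94.6 and 92.0 in these lists. On chromosome 18 chr18:19812126-19812237 of the Pt-ttpy, chr18:19812133-19812242 of the cisplatin and chr18:19812140-19812368 of the untreated list overlapped. On chromosome 20 chr20:31645364-31645466 of the Pt-ttpy and chr20:31645359-31645483 of the cisplatin list had no untreated counterpart. These places were singled out after their values were seen.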
